A study of Mus musculus with 6 samples.

Results

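Serine/arginine-rich (SR) proteins, heterogeneous nuclear ribonucleoproteins (hnRNPs) and the Clk kinases were examined at the RNA level in LβT2 cells, a mouse cell line derived from pituitary gonadotropes, the cells that respond to gonadotropin-releasing hormone (GnRH). Members were the protein-coding genes whose symbol is *Srsf* followed by a number, begins with *Hnrnp* or is one of *Clk1* to *Clk4*, together with *Tra2a* and *Tra2b*. This rule gave 37 of the 47069 genes in the count table: 13 SR genes, of which *Tra2a* and *Tra2b* are the SR-like ones, 20 hnRNP genes and 4 Clk genes. Cells of all 6 libraries were at passage 14, received 2 nM GnRH for 40 min and carried no other treatment in the labels. In the fresh group (n = 3 libraries) the pelleted cells were lysed at once. In the RNA-Best group (n = 3 libraries) the pellet was first kept in RNA-Best, a proprietary preservation reagent, for at least 4 days at 4 °C and lysed afterwards. No untreated cells were in these libraries, so the comparison is between handling of GnRH-treated cells of a single immortalized line.

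SR proteins bind exonic enhancers in pre-mRNA through RNA recognition motifs and recruit the splicing machinery through a domain rich in arginine and serine. The Clk kinases phosphorylate that domain and so release SR proteins from nuclear speckles. Many hnRNPs oppose SR proteins by covering splice sites or enhancers, and others act in RNA export, stability and translation. Several genes of these families limit their own level through a poison exon or a retained intron, which places a stop codon early in the mRNA and routes it to nonsense-mediated decay, or keeps the transcript in the nucleus.

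Depth was 40535204, 47438746 and 14477304 counts in the fresh and 8773187, 4909418 and 11999363 counts in the RNA-Best libraries. Levels are given as CPM, the counts scaled to a common library total, after TMM scaling, with factors between 0.994 and 1.01. Libraries of one group differed by a chi-square of 1.09 to 1.96 per gene, which is above sampling noise, and libraries of different groups by 10.2 to 16.2. Separate cultures, or a shared one, as the origin of the 3 libraries in a group are not given in the sources used here. Here n counts libraries, and the p-values measure the spread between them, which may be technical. Of 12 gonadotrope markers, 10 were at 1 CPM or more and *Fshb* was at 0 in every library. Their summed level was 4367 to 4407 CPM in fresh and 3828 to 3912 CPM in RNA-Best libraries. Of 16 markers of other pituitary or contaminating cells, 4 were at 1 CPM or more and 6 were at 0, among them *Prl*, *Pou1f1*, *Sox2* and *Ptprc*, and their summed level was 195 to 197 CPM in fresh and 199 to 212 CPM in RNA-Best libraries. *Cdh5* and *Pecam1*, known from endothelial cells, made up most of that sum. The part of these markers in the results was not tested. In bulk RNA, fewer cells of a type and less RNA per cell cannot be told apart.

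Counts of this kind are summed per gene over its annotated exons, so reads in a poison exon or in an annotated retained intron count toward the gene. The exons shown here are from GENCODE M21, while the authors counted with the older release M8, so that an exon shown may not have been in the annotation used for counting. They lie inside a transcript annotated as subject to nonsense-mediated decay, overlap no exon of a protein-coding transcript of the gene and hold the stop codon of that transcript. They were found in 9 members. Each line runs from the 5′ end of the exon through the stop codon, which is in capitals.
Srsf3: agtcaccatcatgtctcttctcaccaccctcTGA
Srsf7: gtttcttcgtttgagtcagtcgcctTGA
Srsf9: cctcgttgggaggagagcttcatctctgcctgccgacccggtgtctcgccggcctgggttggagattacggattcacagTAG
Srsf11: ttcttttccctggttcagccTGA
Tra2a: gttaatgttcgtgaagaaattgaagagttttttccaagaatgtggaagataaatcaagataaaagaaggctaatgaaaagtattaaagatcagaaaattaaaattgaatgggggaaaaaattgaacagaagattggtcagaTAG
Tra2b: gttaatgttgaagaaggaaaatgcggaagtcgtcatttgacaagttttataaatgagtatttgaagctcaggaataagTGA
Hnrnpl: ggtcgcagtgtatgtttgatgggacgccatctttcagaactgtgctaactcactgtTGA
Hnrnpll: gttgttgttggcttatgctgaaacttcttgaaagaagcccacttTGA

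These stretches were read from the GENCODE M21 transcripts of the GRCm38 mouse genome. They are chr17:29039454-29039487 on the plus strand for *Srsf3*, chr17:80205054-80205081 on the minus strand for *Srsf7*, chr5:115328347-115328428 on the plus strand for *Srsf9* and chr3:158024209-158024231 on the minus strand for *Srsf11*. Those of *Tra2a* and *Tra2b* are chr6:49252965-49253108 and chr16:22259181-22259261, both on the minus strand, and both open with the same bases. Those of *Hnrnpl* and *Hnrnpll* are chr7:28817335-28817393 on the plus and chr17:80044976-80045022 on the minus strand. *Srsf4* and a further exon of *Srsf11* met the same description. The exon of *Srsf3* is 456 bases long and that of *Srsf7* 460. How often each exon was used was not measured, because the table holds one value per gene.

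Of the 37 members, 36 passed the filter on low counts. The exception was *Srsf12*, at 12, 12 and 4 counts in fresh and 7, 0 and 4 counts in RNA-Best libraries. The 0 allows up to 0.612 CPM in that library, for counting error only, so no difference was detectable at this depth. Among the members tested, 22 differed between RNA-Best and fresh libraries at an adjusted p under 0.05 (edgeR quasi-likelihood test, Benjamini-Hochberg over 14736 genes), 17 of them higher and 5 lower in RNA-Best, while 14 did not pass. This is 61.1% of the members tested. Over all genes tested 50.8% were called, 26.0% higher and 24.8% lower, and over the 8412 genes with a mean of 20 CPM or more, a range that holds every member tested, 67.1%, 32.6% higher and 34.4% lower. In 24 members all libraries of one group lay on one side of all libraries of the other, or 66.7% of those tested, where this held for 57.9% of all genes tested and 71.5% of those at 20 CPM or more. The share called was thus near that of genes of similar level, though 47.2% of members were higher and 13.9% lower. The changes were small, with log2 fold changes (RNA-Best over fresh) between -0.21 and 0.48. Their median was 0.05, and it was -0.03 with an offset for exonic length and -0.04 with an offset for GC content. Over genes at 20 CPM or more the median was -0.02, and -0.07 and -0.04 with these offsets.

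**Figure D1:**
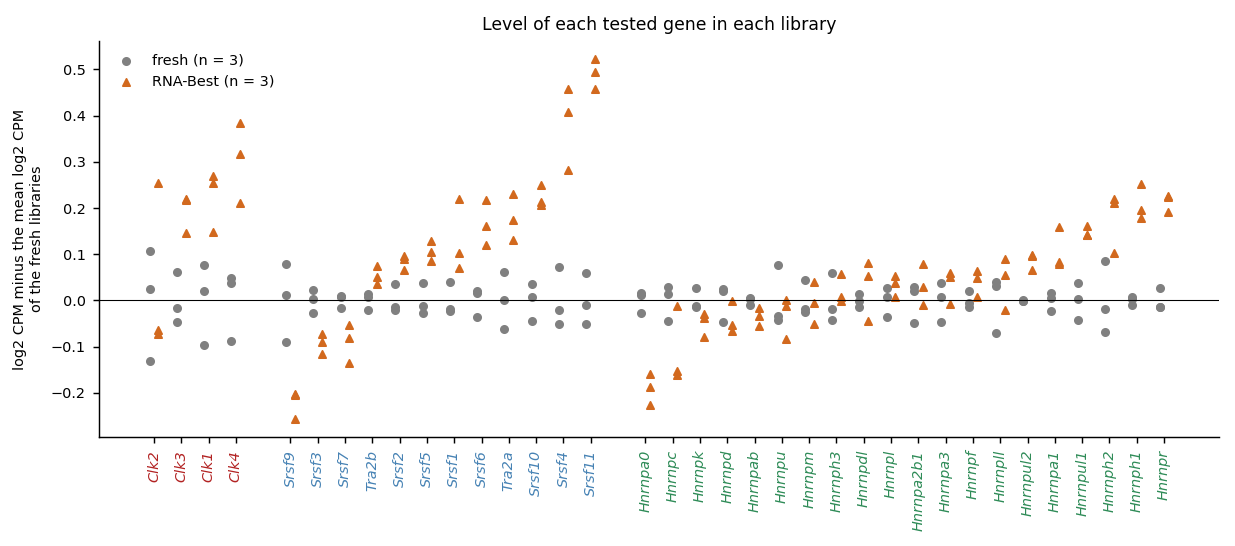
Level of each of the 36 members tested in each library, as log2 CPM minus the mean log2 CPM of the 3 fresh libraries (vertical axis, log2 units); gray circles are fresh and orange-brown triangles RNA-Best libraries, and gene names are red for Clk, blue for SR and green for hnRNP genes. In the 12 SR genes no RNA-Best library overlaps a fresh one, while in 11 of the 20 hnRNP genes the groups overlap. The groups did not overlap in 57.9% of all genes tested and in 71.5% of those at 20 CPM or more.

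The Clk kinases rose in 3 of 4 genes, where 67.1% of genes at 20 CPM or more were called and 32.6% were higher. *Clk1*, at chr1:58410189-58424066 on the minus strand, was at 83.1, 90.1 and 93.7 CPM in fresh and 106, 107 and 98.4 CPM in RNA-Best libraries. The lowest RNA-Best library stood above the highest fresh library by a narrow margin, and the log2 fold change was 0.22 (SE 0.0438, adjusted p = 6.04e-05, edgeR). *Clk4*, its closest relative, at chr11:51261730-51281766 on the plus strand, was at 49.2, 53.6 and 54.1 CPM in fresh and 65.1, 68.1 and 60.5 CPM in RNA-Best libraries. The groups were again separate, with a log2 fold change of 0.29 (SE 0.0497, adjusted p = 6.56e-06, edgeR). *Clk3*, at chr9:57750624-57765860 on the minus strand, was at 49.3, 53.1 and 50.3 CPM in fresh and 56.3, 59.2 and 59.3 CPM in RNA-Best libraries. All its RNA-Best libraries were higher, and the log2 fold change was 0.19 (SE 0.0478, adjusted p = 0.00120, edgeR). *Clk2*, at chr3:89164795-89176921 on the plus strand, was at 38.3, 42.7 and 45.2 CPM in fresh and 39.9, 50.0 and 40.2 CPM in RNA-Best libraries. Its groups overlapped, since only RNA-Best replicate 2 was above all fresh libraries, and it did not pass (log2 fold change 0.02, SE 0.0646, adjusted p = 0.803, edgeR). With the exonic length offset *Clk4* alone passed, at 0.20 (adjusted p = 0.00163, edgeR), and *Clk3* was at -0.01. With the GC content offset *Clk3* alone passed, at 0.24 (adjusted p = 4.91e-05, edgeR).

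The summed level of the 4 Clk genes was 234 ± 12.6 CPM in the 3 fresh libraries and 270.0 ± 13.2 CPM in the 3 RNA-Best libraries (mean ± SD), 15.3% higher. In all 4 genes most of the exonic length, between 56.8% and 63.8%, belonged to transcripts annotated as retained intron and to no protein-coding transcript. Among the 12219 protein-coding genes tested, 8.27% had more of their length in such stretches than not.

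Of the 12 SR genes tested 11 were called, 8 of them up and 3 down in RNA-Best, a share of 91.7% against 67.1% of genes at 20 CPM or more. With the GC content offset, or with one for the exonic length of protein-coding transcripts, 6 of the 12 were called, which is not above the 62.9% and 50.1% of genes at 20 CPM or more called with these offsets. With the former 16.7% were higher, against 26.6% of those genes. With the latter 50% were higher and 0 lower, against 14.6% and 35.5%. With the exonic length offset 9 were called, or 75% against 54.6%, and 50% were higher, against 16.2%. The median log2 fold change of the 12 SR genes was 0.12, but -0.03 with the GC content offset. Over genes at 20 CPM or more these were -0.02 and -0.04. *Srsf11*, whose protein is an SR protein of nuclear speckles, had the largest change of all members without an offset, and *Srsf4* the largest rise with the length or GC content offset. *Srsf11* was at 114, 120.0 and 111 CPM in fresh and 165, 162 and 158 CPM in RNA-Best libraries. Every RNA-Best library was far above every fresh one, a log2 fold change of 0.48 (SE 0.0355, adjusted p = 1.36e-13, edgeR), or 1.40-fold. It was the only member that exceeded a 1.2-fold change by edgeR's glmTreat, and it passed in 19 of 19 settings, with log2 fold changes from 0.28 to 0.51. Next came *Srsf4*, the largest of the classical SR proteins, at 23.3, 25.4 and 23.8 CPM in fresh and 29.4, 33.2 and 32.1 CPM in RNA-Best libraries. Its groups were separate, with a log2 fold change of 0.37 (SE 0.0635, adjusted p = 8.28e-06, edgeR), and both offsets left it as large, at 0.38 for length and 0.43 for GC content.

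*Srsf10*, which turns from an activator into a repressor of splicing when it is dephosphorylated, was at 138, 143 and 146 CPM in fresh and 165, 165 and 169.7 CPM in RNA-Best libraries. The groups did not overlap, and the log2 fold change was 0.23 (SE 0.0334, adjusted p = 4.30e-07, edgeR), though 0.00 with the GC content offset. With the length offset it was 0.08 (adjusted p = 0.0467, edgeR). It did not pass when a block for the replicate number was added to that offset (0.07, adjusted p = 0.0695, edgeR). *Tra2a*, which with *Tra2b* binds enhancers rich in GAA, was at 141, 135 and 147 CPM in fresh and 155, 166 and 159 CPM in RNA-Best libraries. It rose by 0.18 on the log2 scale (SE 0.0358, adjusted p = 6.15e-05, edgeR), but did not pass with the length offset (0.04, adjusted p = 0.469, edgeR) or the GC content offset (0.04, adjusted p = 0.310, edgeR). *Tra2b* was at 165, 161 and 164 CPM in fresh and 169.7, 168 and 172 CPM in RNA-Best libraries. Its libraries were also separate, but by so little that it did not pass (log2 fold change 0.06, SE 0.0319, adjusted p = 0.128, edgeR), and it was lower in RNA-Best with either offset (-0.17 for length and -0.15 for GC content). *Srsf6*, *Srsf1*, *Srsf5* and *Srsf2*, which bind exonic enhancers, rose by 0.17, 0.13, 0.11 and 0.08 on the log2 scale, the latter 3 being below 0 with the GC content offset. With that offset *Srsf6* did not pass either, at 0.04, and with the length offset *Srsf1* did not, at 0.03. *Srsf2* had an adjusted p of 0.0301 (edgeR). Its adjusted p (edgeR) was 0.117 with fresh replicate 1 left out, 0.0577 with fresh replicate 3 left out, and 0.0672 and 0.102 with RNA-Best replicates 2 and 3 left out in turn. By DESeq2 its adjusted p was 0.0639, and by edgeR it was 0.0901 after thinning and 0.562 with no filter on low counts.

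The SR genes lower in RNA-Best were *Srsf9*, *Srsf3* and *Srsf7*. *Srsf9*, a small SR protein close to *Srsf1*, was at 114, 106 and 119.5 CPM in fresh and 94.8, 98.3 and 98.4 CPM in RNA-Best libraries. Fresh libraries were all higher, a log2 fold change of -0.21 (SE 0.0421, adjusted p = 7.22e-05, edgeR). It had the shortest exonic length of all members, 1653 bases, and was at -0.11 with the length offset. With the offset for the exonic length of protein-coding transcripts it did not pass, at -0.08 (adjusted p = 0.152, edgeR), nor did *Srsf10* (adjusted p = 0.447, edgeR). *Srsf3* and *Srsf7* encode closely related proteins that link splicing to mRNA export. *Srsf3* was at 387, 378 and 392 CPM in fresh and 356, 366 and 362 CPM in RNA-Best libraries. *Srsf7* was at 226, 222 and 226 CPM in fresh and 213, 205 and 217 CPM in RNA-Best libraries. In both genes all fresh libraries were higher, with log2 fold changes of -0.09 (SE 0.0283, adjusted p = 0.00628, edgeR) and -0.08 (SE 0.0308, adjusted p = 0.0253, edgeR). *Srsf7* did not pass without fresh replicate 1 (adjusted p = 0.0619, edgeR), without RNA-Best replicate 1 (0.0613) or without RNA-Best replicate 2 (0.129). It also did not pass by DESeq2 (adjusted p = 0.0698), after thinning or with the length offset (adjusted p = 0.186 and 0.0771, edgeR), and *Srsf3* did not pass after thinning (adjusted p = 0.205, edgeR). With the offset for the exonic length of protein-coding transcripts neither passed. *Srsf3* was at -0.28 with the length offset and -0.27 with the GC content offset (adjusted p = 2.53e-09 and 3.22e-10, edgeR), and *Srsf7* at -0.26 with the GC content offset (adjusted p = 4.34e-09, edgeR). Since *Srsf3* and *Srsf7* had parts of counts in 5 of 6 libraries, reads may have been shared with other genes, and their values are uncertain, as are those of *Srsf10*, *Srsf5* and *Tra2b* with parts of counts in all 6. The summed level of the SR genes was 2508 ± 33.6 CPM when fresh and 2672 ± 27.0 CPM after RNA-Best (SD, n = 3 each), 6.54% higher.

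Of the 20 hnRNP genes 8 were called, 6 of them up and 2 down in RNA-Best, a share of 40.0% that is below the 50.8% of all genes tested and the 67.1% of genes at 20 CPM or more. With the exonic length offset 15 were called, 4 up and 11 down, where 54.6% of genes at 20 CPM or more were called and 38.4% were lower. Their median log2 fold change was 0.03, but -0.07 with the exonic length offset, -0.06 with the GC content offset and -0.02 with no filter. Over genes at 20 CPM or more the median was -0.02 without an offset, -0.07 with the length offset and -0.04 with the GC content offset. Without an offset *Hnrnpr* had the largest change, at 137, 134 and 134 CPM in fresh and 154, 158 and 158 CPM in RNA-Best libraries. The groups were well separate, with a log2 fold change of 0.21 (SE 0.0331, adjusted p = 1.48e-06, edgeR). Its exonic length of 22199 bases was the largest of all members, and with the length offset it was lower in RNA-Best, at -0.26 (adjusted p = 1.05e-07, edgeR). With the GC content offset *Hnrnpr* did not pass, at 0.04 (adjusted p = 0.276, edgeR). *Hnrnph1*, which binds runs of G, was at 487, 488 and 482 CPM in fresh and 556, 578 and 549.9 CPM in RNA-Best libraries. All RNA-Best libraries were higher, a log2 fold change of 0.21 (SE 0.0273, adjusted p = 8.68e-08, edgeR), which the GC content offset turned to -0.03. Its paralog *Hnrnph2*, on chrX:134601179-134607060, was at 112, 104 and 100.2 CPM in fresh and 122, 113 and 122 CPM in RNA-Best libraries. The groups were separate by a narrow margin, with a log2 fold change of 0.18 (SE 0.0406, adjusted p = 3.44e-04, edgeR). With the GC content offset it was at -0.0019, and with that for the exonic length of protein-coding transcripts it did not pass, at 0.08 (adjusted p = 0.125, edgeR). Its values are uncertain since parts of counts were present in all 6 libraries.

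*Hnrnpul1*, a relative of the scaffold protein hnRNP U, was at 359, 351 and 339.8 CPM in fresh and 386, 391 and 386 CPM in RNA-Best libraries. RNA-Best libraries were all higher, a log2 fold change of 0.14 (SE 0.0287, adjusted p = 6.73e-05, edgeR), which was -0.07 with the length offset. *Hnrnpa1*, a classical antagonist of *Srsf1* at splice sites, and *Hnrnpul2* rose by 0.10 and 0.09 on the log2 scale, though *Hnrnpa1* was at -0.02 with the GC content offset and *Hnrnpul2* was lower, at -0.07, with the length offset (adjusted p = 0.0475, edgeR). *Hnrnpa0*, an intronless relative of *Hnrnpa1* at chr13:58125879-58128556, was at 143, 139 and 143 CPM in fresh and 121, 124 and 127 CPM in RNA-Best libraries. Every fresh library was higher, a log2 fold change of -0.19 (SE 0.0348, adjusted p = 2.67e-05, edgeR), and it passed in 18 of 19 settings. *Hnrnpc*, which binds runs of U and blocks cryptic exons, was at 265, 252 and 263 CPM in fresh and 234, 233 and 258 CPM in RNA-Best libraries. RNA-Best replicate 3 lay within the fresh range. The log2 fold change of *Hnrnpc* was -0.09 (SE 0.0341, adjusted p = 0.0207, edgeR), and it did not pass without fresh replicate 1, RNA-Best replicate 1 or RNA-Best replicate 2 (adjusted p = 0.0839, 0.177 and 0.120, edgeR) or by DESeq2 (adjusted p = 0.0517). With the length and GC content offsets it was at -0.12 and -0.27 (adjusted p = 0.00612 and 7.44e-09, edgeR).

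Among the 12 hnRNP genes that did not pass, *Hnrnpk*, which binds runs of C, was at 529.8, 515 and 516 CPM in fresh and 493, 506 and 509.6 CPM in RNA-Best libraries. Its groups were separate, with a log2 fold change of -0.05 (SE 0.0274, adjusted p = 0.135, edgeR). *Hnrnpd*, known as AUF1 for its binding to AU-rich elements, was at 251, 239 and 251 CPM in fresh and 236, 247 and 238 CPM in RNA-Best libraries. These overlapped, and the log2 fold change was -0.04 (SE 0.0312, adjusted p = 0.274, edgeR). Both were lower in RNA-Best with the length offset (-0.18 and -0.20) and with the GC content offset (-0.21 and -0.21), and so was *Hnrnpu*, at -0.33 and -0.22 against -0.03 without an offset. The other hnRNP genes that did not pass, *Hnrnpab*, *Hnrnpm*, *Hnrnph3*, *Hnrnpdl*, *Hnrnpl*, *Hnrnpa2b1*, *Hnrnpa3*, *Hnrnpf* and *Hnrnpll*, had log2 fold changes between -0.03 and 0.04. The summed level of the hnRNP genes was 6418 ± 86.6 CPM when fresh and 6609 ± 95.0 CPM after RNA-Best (SD, n = 3 each), 2.98% higher.

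Per kilobase of exonic length, *Hnrnpa2b1* had the highest level of the members in fresh libraries, 174 ± 5.17 CPM per kb (SD, n = 3), followed by *Hnrnpa3* at 112 ± 3.31 and by *Hnrnpa1* at 101 ± 1.44 and *Hnrnpab* at 101 ± 0.550, which did not differ beyond their spread. *Hnrnph1* at 83.1 ± 0.552, *Srsf6* at 81.1 ± 1.73, *Hnrnpk* at 80.5 ± 1.28 and *Srsf1* at 77.8 ± 1.93 CPM per kb came next. The lowest levels apart from *Srsf12* were those of *Clk3* at 6.03 ± 0.235, *Hnrnpr* at 6.08 ± 0.0998 and *Srsf4* at 6.79 ± 0.306 CPM per kb. Divided by the exonic length of protein-coding transcripts alone, the level of *Hnrnpa2b1* was 471 CPM per kb and that of *Srsf3* rose from rank 18 to rank 4 of the 37 members, at 147 CPM per kb. The order of the levels therefore depends on whether exonic bases outside protein-coding transcripts count as length. *Hnrnpa2b1*, *Hnrnpa3*, *Hnrnpa1* and *Hnrnpk* had parts of counts in all 6 libraries, so their levels are uncertain.

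Pairs of related genes were compared within each library by the log2 ratio of their counts, so that scaling between libraries cancels. Of the 12 pairs, 6 had groups that did not overlap. The log2 ratio of *Srsf1* to *Srsf9* was 1.94, 2.04 and 1.93 in fresh and 2.30, 2.39 and 2.28 in RNA-Best libraries, 0.35 higher in RNA-Best. That of *Srsf4* to *Srsf6* was 0.22 higher and that of *Tra2a* to *Tra2b* 0.13 higher, while those of *Hnrnpu* to *Hnrnpul1*, *Hnrnpf* to *Hnrnph1* and *Clk1* to *Clk4* were -0.18, -0.17 and -0.08. Each of these had p = 0.1 (exact permutation test, two-sided), the lowest value that 6 libraries in groups of 3 can give, and an adjusted p of 0.2 over the 12 pairs. With the length offset the ratio of *Srsf1* to *Srsf9* was 0.15 higher and that of *Hnrnpf* to *Hnrnph1* was at -0.03, while that of *Tra2a* to *Tra2b* was 0.21 higher and those of *Hnrnpu* to *Hnrnpul1* and *Clk1* to *Clk4* were at -0.27 and -0.18. *Clk1* to *Clk4* was 0.05 when all libraries were thinned to the smallest total. The log2 ratios of *Srsf3* to *Srsf7*, 0.78 ± 0.01 in fresh and 0.77 ± 0.06 in RNA-Best libraries (SD, n = 3), and of *Hnrnpl* to *Hnrnpll*, 1.83 ± 0.03 and 1.82 ± 0.07, overlapped (exact permutation test, two-sided, p = 1 for both). With the length offset the RNA-Best minus fresh difference was -0.20 for *Srsf3* to *Srsf7* and 0.19 for *Hnrnpl* to *Hnrnpll*.

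The members were long and low in GC content for protein-coding genes. Their median exonic length was 5797 bases and their median GC content 41.7%, against 4525 bases and 49.6% over the 12219 protein-coding genes tested. A transcript annotated as retained intron was present in 28 of the 37 members, or 75.7%, against 58.6% of protein-coding genes, and one annotated for nonsense-mediated decay in 25 members, or 67.6%, against 28.6%. The share of exonic length found in retained-intron transcripts and in no protein-coding transcript had a median of 27.3% in members and 6.30% in protein-coding genes. It was 72.6% in *Hnrnpll*, 69.6% in *Tra2a*, 66.7% in *Srsf3* and 0 in *Srsf9*, *Srsf10*, *Hnrnpa0*, *Hnrnpa1*, *Hnrnph1* and others.

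**Figure D2:**
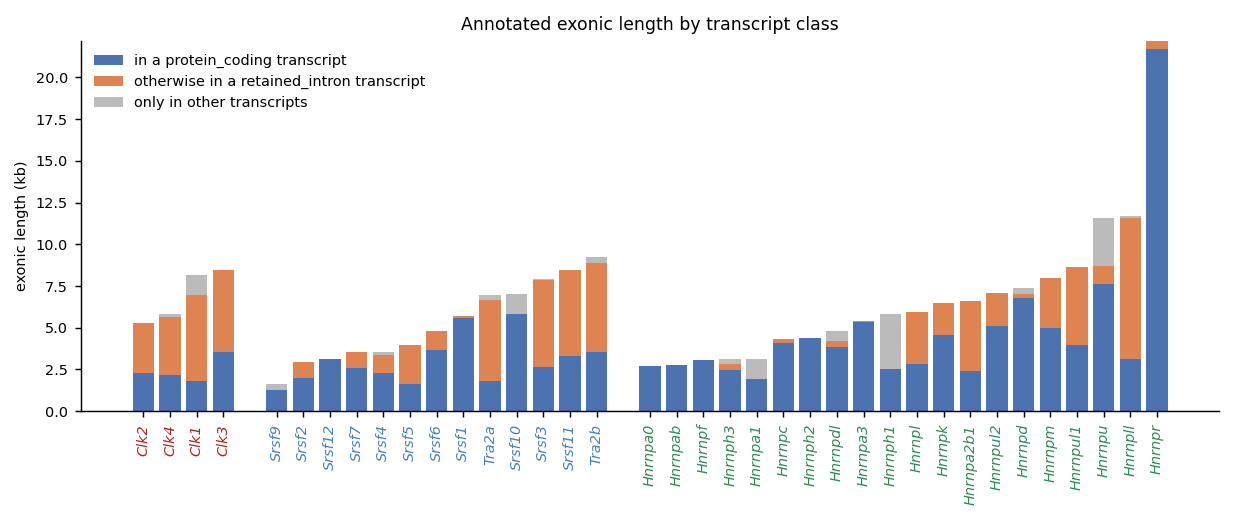
Exonic length of the 37 members in kb (vertical axis), divided into bases in a protein-coding transcript (blue), bases otherwise in a retained-intron transcript (orange) and bases in other transcripts alone (gray), from GENCODE M21. In the 4 Clk genes and in *Srsf3*, *Tra2a*, *Hnrnpll* and some others the orange part is the larger part of the bar, and *Hnrnpr* is the longest at 22199 bases.

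Across all 14677 genes tested with a length, Spearman's rho between the log2 fold change and exonic length was 0.52, and it was -0.35 with GC content, given as a description since genes share the libraries. Across the 36 members tested these were 0.32 and -0.28, and the correlation with the exonic length of protein-coding transcripts was -0.05. It was 0.48 in all genes, but those without a protein-coding transcript were ranked there as having none of this length. The values of members and of all genes are therefore not like for like. At 20 CPM or more, 32.6% of genes were higher and 34.4% lower, with a median log2 fold change of -0.02 (-0.07 with the length offset). Among members with most of their length in retained-intron transcripts and in no protein-coding one, 7 of 13 were higher and 1 was lower. Their median log2 fold change was 0.11 (-0.05 with the length offset). Among the 8 members tested without any such length 4 were higher and 2 lower, with a median of 0.07 (0.08 with the length offset).

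**Figure D3:**
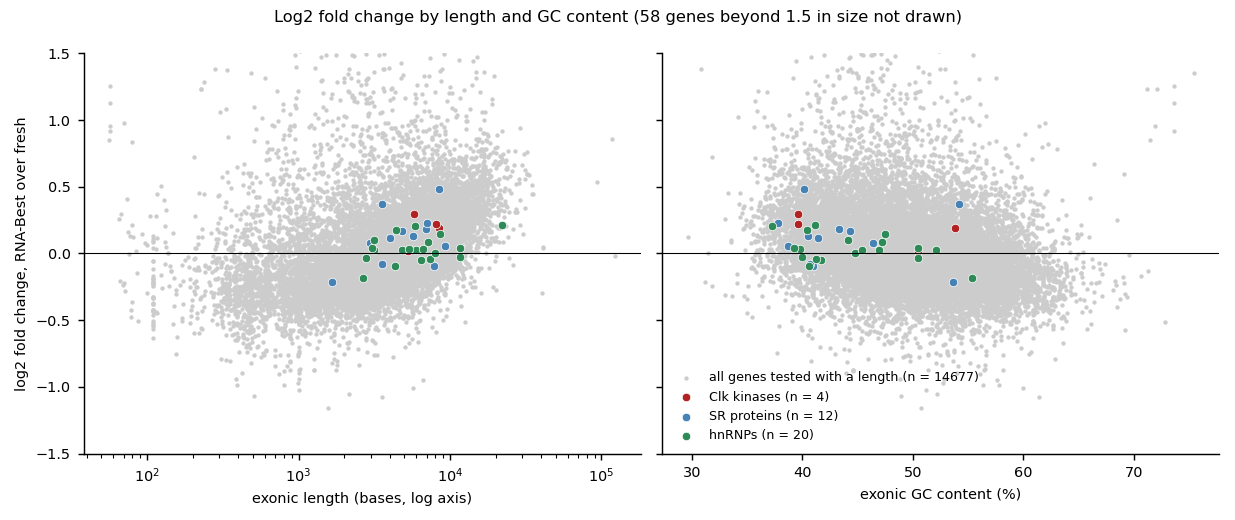
Log2 fold change of RNA-Best over fresh (vertical axis) against exonic length in bases on a log axis (left) and exonic GC content in % (right), with all 14677 genes tested in gray (58 beyond 1.5 in size not drawn) and Clk (red), SR (blue) and hnRNP genes (green) on top. Members sit inside the gray cloud, most of them in its longer and lower-GC part.

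With the offset for exonic length, a loess curve fitted in each library, 25 members were called, 11 of them up and 14 down, where 40.8% of all genes tested passed, 15.6% higher and 25.2% lower. At 20 CPM or more 54.6% of genes passed, 16.2% higher and 38.4% lower. The share of members lower, 38.9%, was near the latter. The shares of members called, 69.4%, and higher, 30.6%, were above those of these genes. By family, 6 SR genes were higher and 3 lower, 4 hnRNP genes higher and 11 lower, and 1 Clk gene higher. With the offset for GC content 17 members passed, 4 higher and 13 lower, where 47.4% of all genes passed, 21.4% higher and 26.0% lower. At 20 CPM or more these were 62.9%, 26.6% and 36.3%. The 36.1% of members lower was again near that of genes of similar level. The shares of members called, 47.2%, and higher, 11.1%, were below those of these genes. With an offset for the exonic length of protein-coding transcripts alone, chosen after the annotation was seen, 21 passed, 13 higher and 8 lower, where 37.4% of all genes passed, 14.2% higher and 23.2% lower, and 50.1%, 14.6% and 35.5% of those at 20 CPM or more. These were 3 Clk genes and 6 SR genes higher and no SR gene lower, and 4 hnRNP genes higher and 8 lower. The split of the members between higher and lower thus differed with the property of the gene that was allowed for. *Srsf11* and *Srsf4* were higher and *Hnrnpa0*, *Hnrnpc*, *Hnrnpk*, *Hnrnpd*, *Hnrnpu* and *Hnrnpm* lower under each of these offsets.

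**Figure D4:**
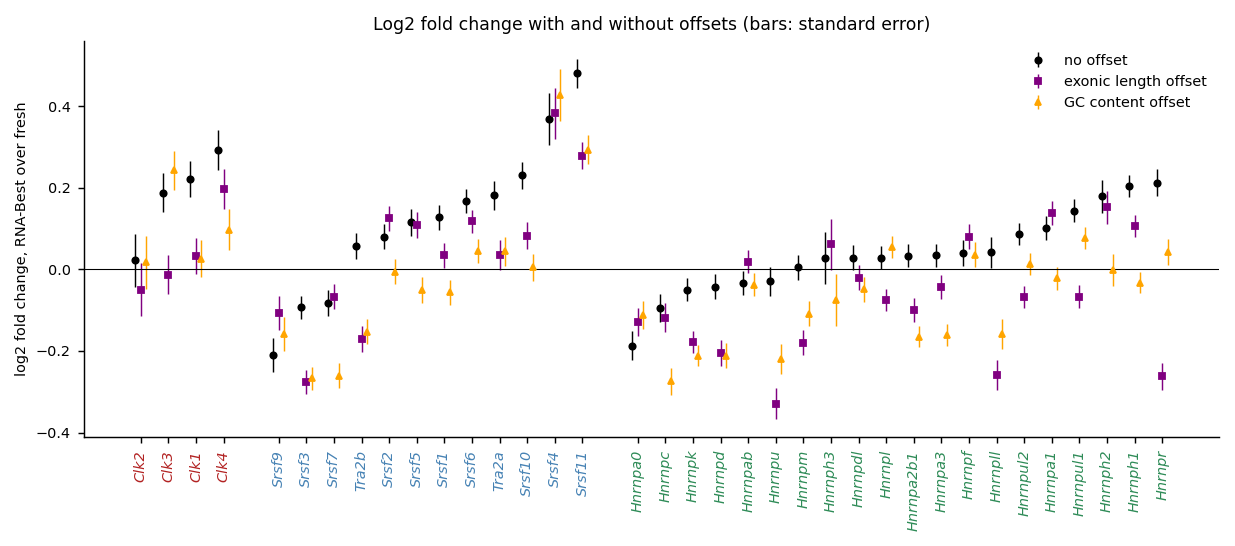
Log2 fold change of RNA-Best over fresh (vertical axis) for each member tested without an offset (black circles), with the exonic length offset (purple squares) and with the GC content offset (orange triangles), bars being standard errors of the edgeR fit. *Hnrnpr* moves from 0.21 to -0.26 with the length offset, while *Srsf4* stays near 0.4 in all 3 fits (0.37, 0.38 and 0.43).

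Other genes of the pathway were described in lists. Of 31 genes of SR-related and nuclear speckle proteins, most of which carry arginine and serine repeats without being classical SR proteins, 25 rose and 0 fell, with a median log2 fold change of 0.25, where 67.1% of genes at 20 CPM or more were called and 32.6% were higher. *Srrm2*, the scaffold of nuclear speckles, was at 490.0 ± 25.6 CPM when fresh and 867 ± 50.2 CPM after RNA-Best (SD, n = 3 each), a log2 fold change of 0.82 (adjusted p = 6.23e-20, edgeR), and *Pnisr* rose by 0.70. The lowest called genes of this list were *Rbm39* at 0.15 and *Rsrc1* at 0.16. With the length offset *Rbm39* did not pass, at 0.005, and *Rsrc1* was lower, at -0.14, while *Srrm2* and *Pnisr* were at 0.48 and 0.44. The median length of the list was 8000 bases. With the length offset 12 were higher and 5 lower, and the median was 0.04, against -0.07 for genes at 20 CPM or more. The share called was 54.8%, near the 54.6% of those genes. Of the list 38.7% was higher and 16.1% lower, where 16.2% and 38.4% of those genes were. With the GC content offset 19 were higher (61.3% against 26.6%) and 1 lower. With the offset for the exonic length of protein-coding transcripts 17 were higher (54.8% against 14.6%) and 0 lower.

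The core spliceosome is made of the proteins of the small nuclear ribonucleoproteins and the complexes that join them. Of 65 genes, 31 fell and 14 rose, with a median log2 fold change of -0.10. The share called was 69.2%, near the 67.1% of genes at 20 CPM or more, of which 34.4% were lower. With the length offset 30 were lower and 4 higher, where 38.4% of genes at 20 CPM or more were lower. *Lsm7*, of the ring on U6 RNA, and *Snrpg*, of the Sm ring, were lowest at -0.46 and -0.45, and the helicase gene *Ddx46* was at 0.34 (0.18 with the length offset). Of 23 tested genes of the other kinases, phosphatases and importins that act on SR proteins, 12 rose and 6 fell (4 and 7 with the length offset), or 78.3% called against 67.1% of genes at 20 CPM or more. With the length offset these were 47.8% and 54.6%. The median turned from 0.12 to -0.07, and that of genes at 20 CPM or more was -0.02 and -0.07. The kinase genes *Hipk2* and *Cdk12* rose by 1.38 and 0.61 (1.17 and 0.31 with the length offset), and *Ppp1ca*, a catalytic subunit of protein phosphatase 1, was at -0.29. *Hipk2* was at 10.0 ± 1.53 CPM when fresh and 27.2 ± 1.41 CPM after RNA-Best (SD, n = 3 each).

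Of 57 tested genes of other alternative splicing regulators, 32 rose and 7 fell, with a median of 0.10 that was -0.01 with the length offset (9 higher and 19 lower). The share called was 68.4%, near that of genes at 20 CPM or more (67.1%), whose median was -0.02, and -0.07 with the length offset. *Mbnl3* and *Nova2* were highest at 0.49 and 0.45, but at 0.28 and 0.25 with the length offset, with which *Nova2* did not pass, and *Pcbp1* and *Raly*, both close to hnRNP families, lowest at -0.28 and -0.25. Of 22 genes of nonsense-mediated decay and the exon junction complex, 7 rose and 6 fell, with a median of -0.002, and with the length offset 6 were higher and 4 lower. The share called was 59.1%, between the 50.8% of all genes and the 67.1% of genes at 20 CPM or more. The highest was *Smg1*, the kinase that acts on UPF1, at 0.77 and 0.28 with the length offset, and the lowest were *Upf3a* at -0.20 and the cap-binding gene *Ncbp2* at -0.17.

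**Figure D5:**
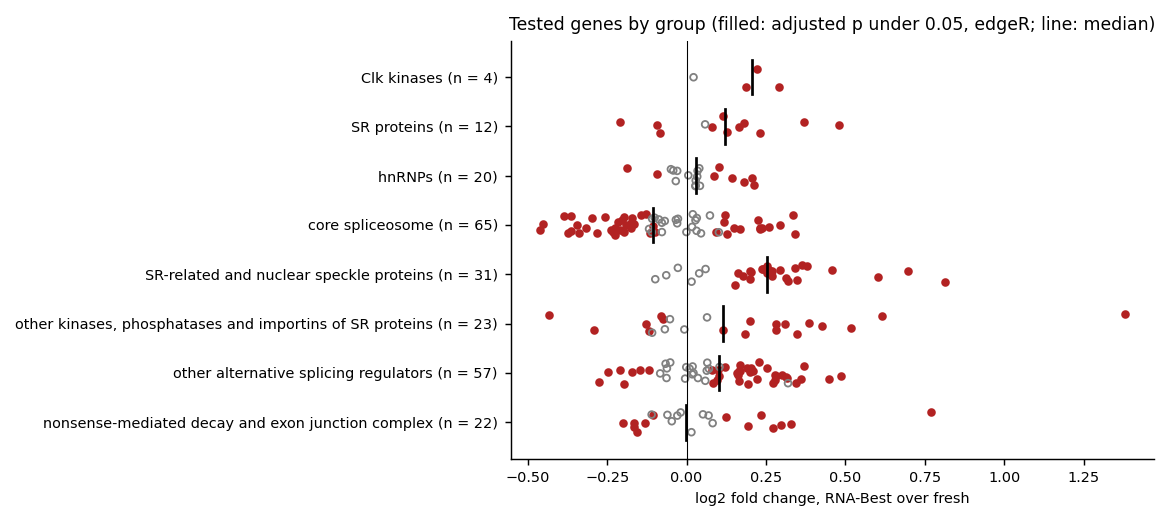
Log2 fold change of RNA-Best over fresh (horizontal axis) of each tested gene in the 3 families and the 5 pathway lists, with genes at an adjusted p under 0.05 (edgeR) filled and the median as a black line. The line of the SR-related and nuclear speckle list lies at 0.25 (0.04 with the length offset, not drawn) and that of the core spliceosome at -0.10, and *Hipk2* stands apart at 1.38.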

How the data were processed

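Poly(A) RNA-seq of GnRH-treated LβT2 cells was used, with 3 fresh and 3 RNA-Best libraries grouped by their labels. Per the submitters' processing notes, reads were aligned with STAR (version 2.5.1b) and counted with featureCounts (version 1.5.0-p1). The methods name the GRCm38 assembly with GENCODE release M8. What the authors deposited are estimated counts for each gene, with no scaling by depth. In each library, 9.36% to 16.3% of them were not whole within 0.001, and the setting that divided reads is not given in the sources used here, so genes with near-identical copies or overlapping neighbors are uncertain. Strand was not given either.

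Counts were rounded and tested in R (version 4.3.3) by the quasi-likelihood method of edgeR (version 4.0.16) after TMM scaling and a filter by filterByExpr with a minimum count of 10. P-values were adjusted over all 14736 genes tested by Benjamini-Hochberg, and called below 0.05. The common biological coefficient of variation was 2.14%. DESeq2 (version 1.42.0), limma-voom (limma version 3.58.1), glmTreat at 1.2-fold, other scaling and filters, a replicate block, loess offsets (span 0.5) for length and GC content, thinning and leaving out single libraries were alternatives. Log2 ratios of gene pairs used counts + 0.5 and exact permutation tests. Scripts were tested on simulated data. Lengths, GC content, positions, transcript classes and sequences came from GENCODE M21, which is newer but of the same assembly and held 46488 of the 47069 genes.

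Members and pathway lists were chosen with earlier results of these data known. Values in every library are given for the Clk and Tra2 genes and for the 4 largest and 4 smallest log2 fold changes in the SR and hnRNP families. Of each list the 2 called genes with the largest and the 2 with the smallest log2 fold change are named, except for some that are not reported here, and marker genes and *Srsf2* were named after their values were seen. Single-cell and qPCR data were not analysed here.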

Additional observations from a re-analysis of the deposited data

How the results depend on the processing

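The number of members called was 22 and stayed between 17 and 25 in all settings except the test against a 1.2-fold change (glmTreat), which left 1 member, with 1 higher and 0 lower in RNA-Best, and 6 core spliceosome, 8 SR-related, 6 kinase, phosphatase and importin, 2 splicing regulator and 1 decay gene. Leaving out single libraries gave 19 to 22 called, 16 to 17 higher and 3 to 5 lower, with 3 lower without fresh replicate 1, RNA-Best replicate 1 or RNA-Best replicate 2. With no filter 13 members were higher, and *Srsf2*, *Srsf5*, *Hnrnpul2* and *Hnrnpa1* did not pass (adjusted p = 0.562, 0.149, 0.375 and 0.184, edgeR). Members lower numbered 3 by DESeq2, 3 after thinning, 8 with no filter and 8 with the coding length offset, and decay genes called 5 after thinning. With the coding length offset 29 core spliceosome genes and 25 splicing regulators were called. With the length offset, 11 members were higher and 14 lower and 11 kinase, phosphatase and importin genes were called. With the GC offset, 4 members were higher and 13 lower. The cause was not tested.

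Deviations from the group means were uncorrelated between libraries that share a number (r of -0.00844, 0.0121 and -0.00770 across genes), and the numbers were not taken as pairs. The replicate block changed no call among the members, and *Hnrnpm* was at -0.00310 with it. With replicate block and length offset 10 members were higher and 14 lower, and 16 SR-related and 11 kinase, phosphatase and importin genes were called.

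Some log2 fold changes changed sign. The length offset gave *Clk2* -0.0499, *Clk3* -0.0127, *Tra2b* -0.170, *Hnrnpab* 0.0193, *Hnrnpm* -0.180, *Hnrnpdl* -0.0204, *Hnrnpl* -0.0757, *Hnrnpa2b1* -0.0993, *Hnrnpa3* -0.0432, *Hnrnpll* -0.259, *Hnrnpul2* -0.0666, *Hnrnpul1* -0.0665, *Hnrnpr* -0.262 and an hnRNP median of -0.0712. With the replicate block added these were -0.0491, -0.00847, -0.180, 0.0183, -0.191, -0.0236, -0.0717, -0.102, -0.0463, -0.259, -0.0683, -0.0651, -0.272 and -0.0700. The GC offset gave *Tra2b* -0.152, *Srsf2* -0.00589, *Srsf5* -0.0498, *Srsf1* -0.0561, *Hnrnpm* -0.108, *Hnrnph3* -0.0753, *Hnrnpdl* -0.0491, *Hnrnpa2b1* -0.165, *Hnrnpa3* -0.160, *Hnrnpll* -0.159, *Hnrnpa1* -0.0216, *Hnrnph2* -0.00190, *Hnrnph1* -0.0322, an SR median of -0.0278 and an hnRNP median of -0.0622. The coding length offset gave *Srsf1* -0.0533, *Hnrnpm* -0.139, *Hnrnpdl* -0.0376, *Hnrnpa3* -0.131, *Hnrnpul2* -0.0660, *Hnrnpr* -0.380 and an hnRNP median of -0.0282. No filter gave *Clk2* -0.0251, *Hnrnpm* -0.0413, *Hnrnph3* -0.0196, *Hnrnpdl* -0.0179, *Hnrnpl* -0.0179, *Hnrnpa2b1* -0.0130, *Hnrnpa3* -0.0120, *Hnrnpf* -0.00663, *Hnrnpll* -0.00468 and an hnRNP median of -0.0154. After thinning *Hnrnpm* was at -0.0293. With single libraries left out, *Clk2* ranged from -0.0485 to 0.0780, *Hnrnpu* from -0.0526 to 0.00445 and *Hnrnpm* from -0.0185 to 0.0248.

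Among log2 ratios, *Clk1* to *Clk4* was 0.0474 and *Srsf3* to *Srsf7* 0.0138 after thinning, and *Hnrnpl* to *Hnrnpll* 0.192 with the length offset. With single libraries left out, *Srsf3* to *Srsf7* ranged from -0.0344 to 0.0145 and *Hnrnpl* to *Hnrnpll* from -0.0426 to 0.0281. *Srsf10* to *Srsf12* rests on 0 to 12 counts of *Srsf12* and is not read: it was 0.11 with the pseudocount of 0.5, -0.212 with 1 and -0.920 with 5, -0.0361 with the length offset and -0.705 to 0.831 with single libraries left out. Depth was lowest in RNA-Best replicate 2, where a count of 0 allows 0.612 CPM.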
